A study of Homo sapiens with 12 samples.

Results

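Neurotrophins and the ligands of the GDNF family are secreted proteins that keep neurons alive and direct the growth of their axons. The 9 genes described here are 2 neurotrophin ligands (*BDNF* and *NTF3*), 3 neurotrophin receptors (*NTRK2*, *NTRK3* and *NGFR*) and 4 receptor genes of the GDNF family (*RET*, *GFRA1*, *GFRA2* and *GFRA3*). They were taken by symbol from the gene tables of 2 human neuron types. All 9 were listed in both tables, among 16406 genes in motor neurons and 19016 genes in NGN2 neurons, of which 16093 were shared. Each of the 9 symbols had 1 gene identifier.

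The neurotrophin receptors named TRK are receptor tyrosine kinases. *NTRK2* encodes TrkB, the receptor for BDNF, and *NTRK3* encodes TrkC, the receptor for the product of *NTF3*. *NGFR* encodes p75NTR, which binds all mature neurotrophins and their uncleaved precursors. GDNF family ligands bind a GFRA co-receptor held at the membrane by a lipid anchor, and the pair then engages the tyrosine kinase RET. GFRA1 is the preferred co-receptor of GDNF, GFRA2 that of neurturin and GFRA3 that of artemin. BDNF and GDNF are classical survival factors for motor neurons, and RET and GFRA1 are found in embryonic motor neurons.

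The study used RNA-seq of 12 libraries to profile both neuron types after knockdown of *SMN1* and *SMN2*, the genes of the survival motor neuron protein. Motor neurons (iMNs) came from an iPSC line that carries Td-Tomato under the HB9 promoter and were sorted for Td-Tomato. Excitatory neurons (i3Ns), labelled as cortical neurons, came from H1, an established human ES cell line with inducible NGN2, a proneural transcription factor. Every culture carried a doxycycline-inducible lentiviral shRNA, either scrambled (SCR) or against *SMN1/2* (*SMN*-KD), with 3 libraries for each of the 4 groups. The groups of a cell type thus shared the stem cell line, the vector and the inducer, and each cell type rests on 1 stem cell line. According to the methods, the iMN medium contained BDNF and GDNF protein. RNA-seq does not register added protein, and the culture medium of the i3Ns was not given in the sources used here.

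The value used for each gene was the authors' mean over the 6 libraries of a cell type of counts normalized by DESeq2, called the mean normalized count. It pools 3 SCR with 3 *SMN*-KD libraries. Values per library were not used here, so no SD, no interval and no test can be attached to it, and the difference between SCR and *SMN*-KD neurons was not analysed here. Total counts per library are unknown. The means summed to 4.33e+07 in iMNs and 4.50e+07 in i3Ns. The tables were normalized separately, and the median shared gene was higher by 0.07 in i3Ns on the log2 scale, a shift that is left in the levels and taken out of the ratios. The names iMN and i3N follow the deposited tables, and every direction given between them rests on those names. The markers were mixed in this respect. The motor neuron factors *MNX1*, *ISL1*, *ISL2* and *LHX3* were higher in the table named i3N, and *NEUROG2*, which encodes NGN2, was higher in the table named iMN (263 against 114). The glutamatergic genes *SLC17A6*, *SLC17A7*, *NEUROD1* and *TBR1* were higher in i3Ns and the choline transporter gene *SLC5A7* in iMNs, as the names say. Whether the tables carry the right names was not tested. Because both groups hold 3 libraries, the mean of either group can be at most double the pooled value.

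The co-receptor of GDNF was higher in iMNs than in i3Ns and the kinase that it engages was higher in i3Ns, although *GFRA1* stood above *RET* in both tables. *GFRA1* (ENSG00000151892), on the minus strand of chromosome 10, had a mean normalized count of 35996 in iMNs and 11964 in i3Ns. This placed it above 99.5% of the genes listed in iMNs and above 96.6% of those in i3Ns. *RET* (ENSG00000165731), the kinase that GFRA1 engages, lies on the plus strand of the same chromosome and had 2773 in iMNs and 6349 in i3Ns. *RET* stood at the 76.4th percentile of the iMN table and at the 91.2nd percentile of the i3N table.

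The other co-receptors were lower than *GFRA1* in both cell types, per kb of transcript as well. *GFRA2* (ENSG00000168546, chromosome 8, minus strand) had a mean normalized count of 875 in iMNs, at the middle of that table, and 2116 in i3Ns. *GFRA3* (ENSG00000146013, chromosome 5, minus strand), best known from sensory and sympathetic neurons, had 30.0 in iMNs and 110.7 in i3Ns. At these levels neither iMN group can have had a mean above 60.0 for *GFRA3*.

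*NTRK3* was 3.96-fold higher in iMNs, and *NTRK2* had a 1.64-fold higher mean in i3Ns, a ratio within 2-fold. *NTRK3* was the higher of the pair per kb in iMNs and *NTRK2* in i3Ns. *NTRK3* (ENSG00000140538, chromosome 15, minus strand) had 13354 in iMNs and 3537 in i3Ns. *NTRK2* (ENSG00000148053, chromosome 9, plus strand) had 3960 in iMNs and 6805 in i3Ns. Both genes make full-length receptors and truncated forms without the kinase, and a gene total does not tell these apart. GENCODE release 44 annotates 58 transcripts for *NTRK2* and 19 for *NTRK3*.

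*NGFR* (ENSG00000064300, chromosome 17, plus strand) was high in both neuron types. Its mean normalized count was 12943 in iMNs and 9034 in i3Ns, at the 96.8th and the 94.7th percentile. p75NTR is carried by developing motor neurons and by sensory neurons, and it is reduced in most adult motor neurons.

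Transcripts of both ligands were lower per kb than those of their TRK receptors in each cell type. *BDNF* (ENSG00000176697, chromosome 11, minus strand) had a mean normalized count of 533 in iMNs and 610 in i3Ns, near the middle of both tables. *NTF3* (ENSG00000185652, chromosome 12, plus strand) had 22.9 in iMNs and 123.2 in i3Ns. Neither iMN group can have exceeded a mean of 45.8 for *NTF3*. The iMN table listed no gene below a mean of 7.73, so *NTF3* lay close to the lowest value listed there.

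**Figure D1:**
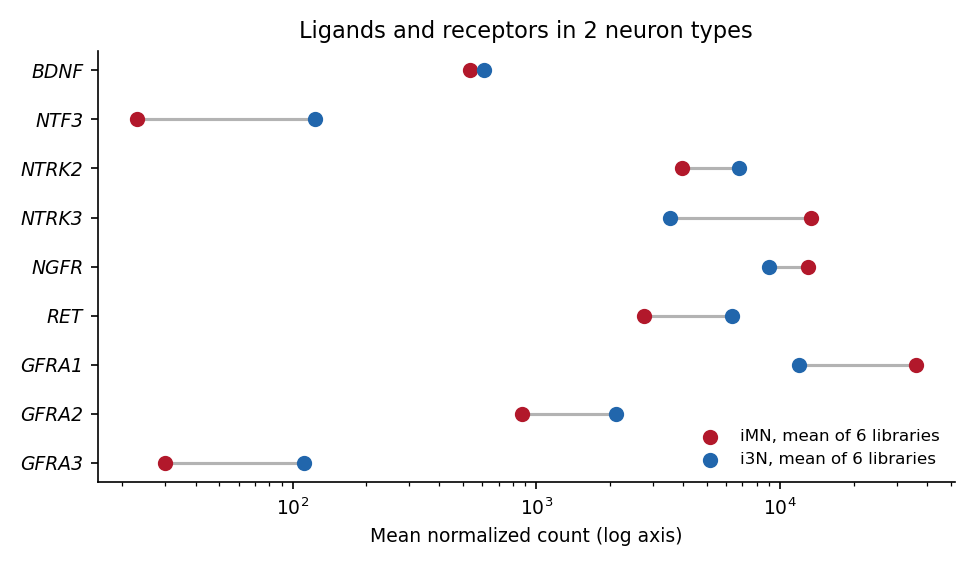
Mean normalized count (horizontal log axis) of the 9 genes (vertical axis) in iMNs (red) and i3Ns (blue), each point the authors' mean over 6 libraries, without an error bar because values per library were not used. *GFRA1* and *NTRK3* lie further right in iMNs, *NTF3*, *GFRA3*, *GFRA2* and *RET* further right in i3Ns, and the 2 points of *BDNF* almost touch (533 and 610).

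On GRCh38 the 9 genes are spread over 8 chromosomes. *NTRK2* runs from 84668375 to 85095751 and *NTRK3* from 87859751 to 88256791. *NGFR* runs from 49495293 to 49515008, *RET* from 43077064 to 43130351 and *GFRA1* from 116056925 to 116276803. *GFRA2* covers 21690398 to 21812357 and *GFRA3* covers 138252380 to 138274621. *BDNF* covers 27654893 to 27722058 and *NTF3* covers 5432108 to 5521536. All are protein-coding genes, and 10 other annotated genes overlap 6 of them, among these *BDNF-AS* and *NTRK3-AS1* on the opposite strand. None of the 10 was listed in either table. Long noncoding RNA genes were few in general (20 in i3Ns), whereas pseudogenes were listed, with 382 processed ones in iMNs and 1101 in i3Ns. Whether the quantification used strand was not stated in the sources used here, so reads of an antisense partner cannot be told apart from those of *BDNF* or *NTRK3*.

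Levels of different genes can be compared only per length, so each mean was divided by the length of the gene's MANE Select transcript, the reference transcript chosen jointly by Ensembl and RefSeq. In iMNs, *GFRA1* (3929 per kb) and *NGFR* (3798 per kb) stood well above the rest. *NTRK3* followed with 667 per kb, *RET* with 494 and *NTRK2* with 457. *GFRA2* had 175 per kb and *BDNF* 134, and *NTF3* (17.1) and *GFRA3* (15.1) closed the order.

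In i3Ns, *NGFR* came first with 2651 per kb. *GFRA1* (1306 per kb) and *RET* (1130) were next and differed little, followed by *NTRK2* with 785. *GFRA2* had 424 per kb, *NTRK3* 177 and *BDNF* 153. *NTF3* (91.9) and *GFRA3* (55.7) were again last. Neighbours in these orders cannot be separated by a spread between libraries. With the merged exons of all transcripts as the length, *NTRK2* and *GFRA2* changed places in both cell types, as did *NTF3* and *GFRA3*.

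**Figure D2:**
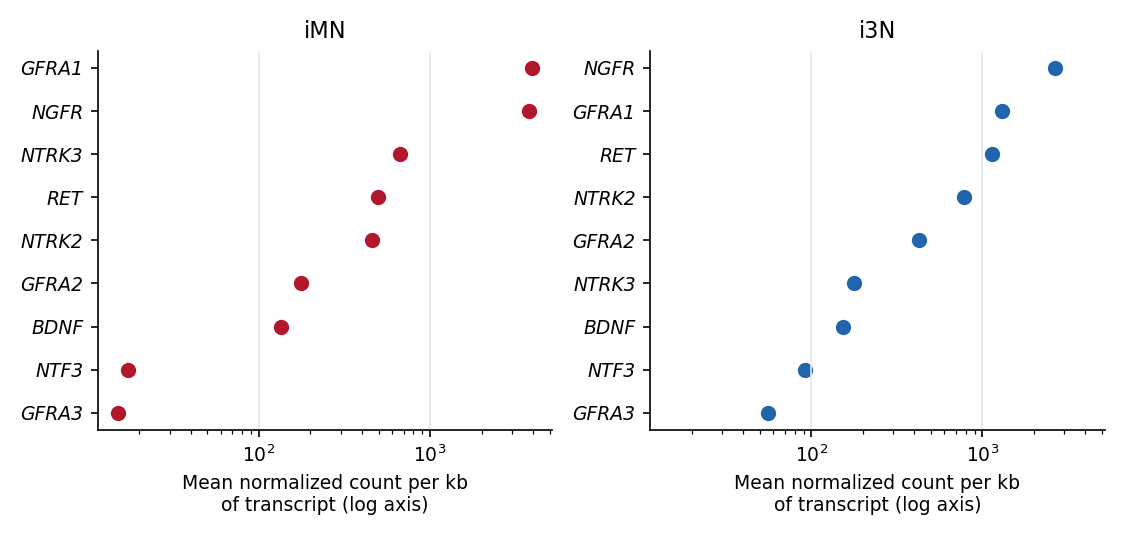
Mean normalized count per kb of MANE Select transcript (horizontal log axis) for the 9 genes, ordered from high to low in iMNs (left) and in i3Ns (right), each point the authors' mean over 6 libraries. *GFRA1* and *NGFR* lead in both panels, *RET* is close to *GFRA1* in i3Ns (1130 and 1306) and not in iMNs (494 and 3929), and *NTRK3* has rank 3 in iMNs and rank 6 in i3Ns.

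The balance between partners therefore differed between the tables. Per kb, the *GFRA1* level was 7.96 times that of *RET* in iMNs and 1.16 times in i3Ns. The *GFRA2* to *RET* ratio was nearly the same in both, 0.355 in iMNs and 0.375 in i3Ns. *NTRK3* was at 1.46 times the *NTRK2* level per kb in iMNs and at 0.225 times in i3Ns, a 6.49-fold shift that no choice of length or scaling alters, since both cancel. The ratio within a table does depend on the length. With merged exons it was 4.18 in iMNs and 0.644 in i3Ns, and *NTRK3* led in iMNs and *NTRK2* in i3Ns under each of the 3 lengths used.

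Of the 3 GFRA co-receptors listed, *GFRA1* gave 95.4% of the level per kb in iMNs and 73.1% in i3Ns, where *GFRA2* reached 23.7%. *GFRA4*, the co-receptor of persephin, was listed in neither table.

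To set one cell type against the other, the tables, which the authors normalized separately, were scaled so that the median ratio of the 16093 shared genes was 1. Ratios are given as i3N over iMN and have no test, because each is a ratio of 2 pooled means. A gene was called higher in one cell type past a 2-fold ratio. Past that ratio at least 1 group of the higher cell type must have a mean above both groups of the other, however the pooled mean divides between SCR and *SMN*-KD. Of the shared genes, 9.95% were called higher in i3Ns and 14.7% higher in iMNs.

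Of the 9 genes, 4 were called higher in i3Ns, 2 higher in iMNs and 3 neither. *NTF3* had the largest ratio, 5.13-fold higher in i3Ns (log2 ratio 2.36), and 2.27% of all shared genes had a higher one. *GFRA3* was 3.52-fold higher in i3Ns (log2 ratio 1.81), *GFRA2* 2.30-fold (1.20) and *RET* 2.18-fold (1.13). *NTRK3* was 3.96-fold higher in iMNs (log2 ratio -1.99) and *GFRA1* 3.16-fold (-1.66). *NTRK2* (log2 ratio 0.71), *BDNF* (0.13) and *NGFR* (-0.59) stayed within the 2-fold limit.

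The median log2 ratio over the 9 genes was 0.71, against 0 for all shared genes by construction. *RET* was the nearest to the limit among the genes called and *NTRK2* the nearest among those not called. Fewer cells that carry a transcript and less of it per cell cannot be told apart in bulk RNA. Cell type, stem cell line, sorting and culture protocol differed together between the tables and cannot be told apart either.

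**Figure D3:**
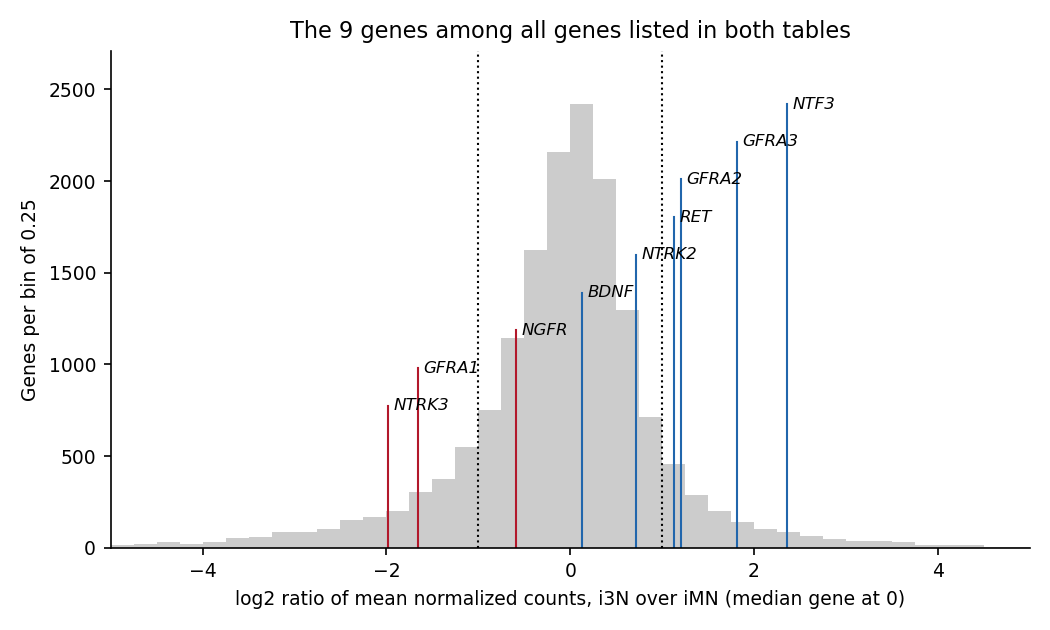
Histogram of the log2 ratio of mean normalized counts, i3N over iMN, for the 16093 genes listed in both tables (grey bars, bins of 0.25, horizontal axis cut at -5 and 5), with the 9 genes as labelled lines whose height has no meaning. Dotted lines mark 2-fold. *NTRK3* and *GFRA1* lie left of the lower limit, and *RET*, *GFRA2*, *GFRA3* and *NTF3* right of the upper one.

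Other ligands of these receptors were mostly weak. *GDNF* had a mean normalized count of 39.5 in iMNs and 178.3 in i3Ns, a log2 ratio of 2.10. *NRTN* (neurturin) had 16.3 and 6.89, and *ARTN* (artemin) 21.8 and 25.9. *PSPN* (persephin) was the exception with 487 and 680. *NTF4*, another ligand of TrkB, was listed in neither table.

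Co-receptors outside the core set included some of the most abundant genes of both tables. Of 4 other neurotrophin genes examined and listed in both tables, *SORCS3* was called higher in iMNs and none higher in i3Ns. The other 3 (75%) lay within 2-fold, near the 75.4% of all shared genes. *SORT1* encodes sortilin, which binds proneurotrophins together with p75NTR, and it had 11081 in iMNs and 9089 in i3Ns. *SORCS3*, a relative of sortilin, had 2141 in iMNs and 429 in i3Ns. *NCAM1*, an adhesion molecule that also binds GDNF, stood at 60033 and 69359, above 99.7% and 99.8% of the genes. *SDC3*, a heparan sulfate proteoglycan that binds GDNF family ligands, had 32096 in iMNs and 15036 in i3Ns. Of the 7 other GDNF family genes listed in both tables, *GDNF* was called higher in i3Ns, and *GDF15*, *NRTN* and *SDC3* higher in iMNs. The remaining 3 (42.9%) lay within 2-fold, against 75.4% of all shared genes.

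Neurotrophins are made as precursors and cleaved by furin and related convertases. Of 7 processing genes, 5 (71.4%) lay within 2-fold, near the 75.4% of all shared genes. None was called higher in i3Ns and 2 were called higher in iMNs. The median log2 ratio was 0.11, with 5 ratios above 0 and 2 below. *FURIN* differed little, with a mean normalized count of 2385 in iMNs and 2656 in i3Ns. *PCSK1*, a convertase of the regulated secretory pathway, had 9053 and 4123, and *PCSK6* had 585 and 151. *CPE*, which helps to sort proBDNF into secretory granules, had 15817 and 26395.

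Adaptors that link TRK receptors and RET to RAS, PI3K and PLC signalling lay within 2-fold about as often as genes in general. Of 18 listed in both tables, 14 (77.8%) were within that limit, against 75.4% of all shared genes, and the median log2 ratio was -0.05. *FRS2* had a mean normalized count of 2249 in iMNs and 2927 in i3Ns, and *GRB2* 11410 and 11378. The *SHC* family was split. *SHC1*, which is low in mature neurons, had 1424 in iMNs and 5966 in i3Ns, and the neuronal *SHC3* had 22324 and 4372. *KIDINS220*, a scaffold of TRK receptors, was at 48887 and 52636.

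Of 9 partners of p75NTR listed in both tables, 7 (77.8%) lay within 2-fold, near the 75.4% of all shared genes. The other 2 were called higher in iMNs, and the median log2 ratio was -0.65, with 3 ratios above 0 and 6 below. *MAGED1*, which binds the intracellular part of p75NTR, had a mean normalized count of 40070 in iMNs and 18798 in i3Ns. *BEX3*, another p75NTR-binding protein, had 9743 and 3040. *NGFR* itself had a log2 ratio of -0.59.

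Known targets and feedback regulators of the pathway differed most often. Of 13 genes, 7 were called higher in i3Ns and 3 higher in iMNs, with a median log2 ratio of 1.63. The other 3 (23.1%) lay within 2-fold, against 75.4% of all shared genes. Those higher in i3Ns were *EGR1*, *DUSP6*, *SPRY1*, *SPRY2*, *SPRY4*, *ETV1* and *ETV5*. *DUSP6*, a phosphatase that switches ERK off, had a mean normalized count of 1600 in iMNs and 12040 in i3Ns. *ETV1*, an ETS factor that depends on NTF3 in proprioceptive sensory neurons, had 73.9 and 6241. These genes respond to many growth factors and are not specific to TRK receptors or RET.

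Other targets had the opposite order. *VGF*, a secreted peptide precursor induced by neurotrophins, had 110624 in iMNs and 17110 in i3Ns. *FOS*, an immediate early gene, had 6340 and 405, and *NPTX2*, a neuronal pentraxin, had 3335 and 1389. *EGR1*, also an immediate early gene, had 417 and 3092, so these 2 immediate early genes had opposite orders.

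**Figure D4:**
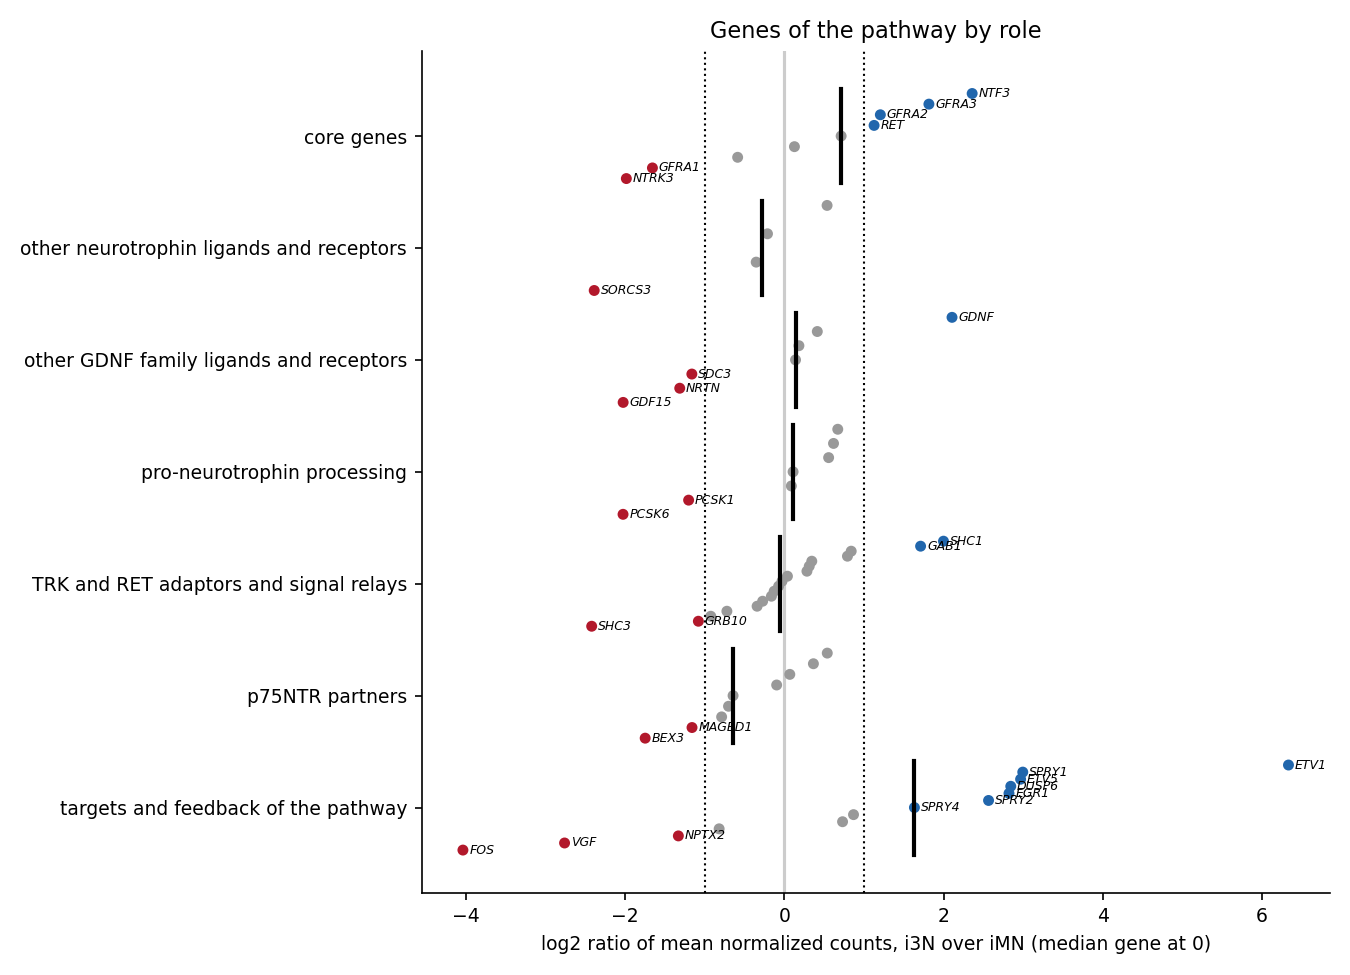
Log2 ratio of mean normalized counts, i3N over iMN (horizontal axis), for the 9 genes described (first line, "core genes") and for the other genes of the pathway grouped by role (vertical axis), 1 point per gene and a black bar for the median of each group. Blue points are past 2-fold in i3Ns and red points past 2-fold in iMNs. The median is highest for targets and feedback genes (1.63) and lowest for p75NTR partners (-0.65), and *ETV1* lies farthest right.

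Markers of cell type differed strongly between the tables, and ran partly with and partly against the names of the tables. *MNX1*, which encodes HB9, had a mean normalized count of 430 in iMNs and 2279 in i3Ns, and *ISL1* had 1663 and 14299. The genes of acetylcholine transport had the opposite order, with 3115 and 1865 for *SLC18A3* and 8460 and 2472 for *SLC5A7*. Of these, only *SLC5A7* was past 2-fold. The motor neuron marker *CHAT* was nearly equal, with 533 in iMNs and 527 in i3Ns. Of the 7 motor neuron markers, 4 were called higher in i3Ns and 1 higher in iMNs, against 9.95% and 14.7% of all shared genes. Their means summed to 14287 in iMNs and 25231 in i3Ns. Most of the iMN sum was *SLC5A7* and most of the i3N sum was *ISL1*. In i3Ns the vesicular glutamate transporters *SLC17A6* and *SLC17A7* stood at 11237 and 6490, against 593 and 50.1 in iMNs. The 8 glutamatergic markers summed to 2739 in iMNs and 26928 in i3Ns, and *NEUROD6* was listed in neither table.

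The i3N table also held factors known from peripheral neurons. *POU4F1*, found in sensory neurons, had 13128 in i3Ns and 24.2 in iMNs, and *DRGX*, a factor of pain-sensing neurons, had 1256 and 12.2. Of 7 sensory or autonomic markers listed in both tables, 4 were called higher in i3Ns and 1, *DBH*, higher in iMNs (44.2 against 6.98). Of all shared genes, 9.95% were called higher in i3Ns and 14.7% higher in iMNs. *PRDM12* (52.9 in iMNs and 33.4 in i3Ns) and *PIEZO2* (1105 and 1509) stayed within 2-fold. *TH* was listed in iMNs alone (402) and *SCN10A* in i3Ns alone (3.99). The lowest mean listed was 7.73 in iMNs and 1.37 in i3Ns, so a gene at the level of *SCN10A* could be listed only in i3Ns. The markers examined summed to 1760 in iMNs and 16393 in i3Ns, and most of the i3N sum was *POU4F1*. Of the receptors found in sensory neurons, *GFRA3* and *RET* were called higher in i3Ns as well, whereas *NTRK3*, the receptor of proprioceptors, was called higher in iMNs and *NGFR* had a log2 ratio of -0.59. The 3 genes of stem and dividing cells with a value in both tables were called higher in i3Ns too, against 9.95% of all shared genes. *LIN28A* had 215 in iMNs and 4216 in i3Ns, *MKI67* 28.3 and 522, and *TOP2A* 22.5 and 311. The stem cell genes *POU5F1* and *NANOG* had 13.9 and 7.73 in i3Ns, and no iMN value was read for them. *POU5F1* had 4 identifiers, and only the one on the main chromosomes was read. The list summed to 265 in iMNs and 5070 in i3Ns, and most of the i3N sum was *LIN28A*. The glial markers *GFAP*, *AQP4* and *SOX10* were listed in neither table. The part of these other cell types and states in the levels of the 9 genes was not tested.

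**Figure D5:**
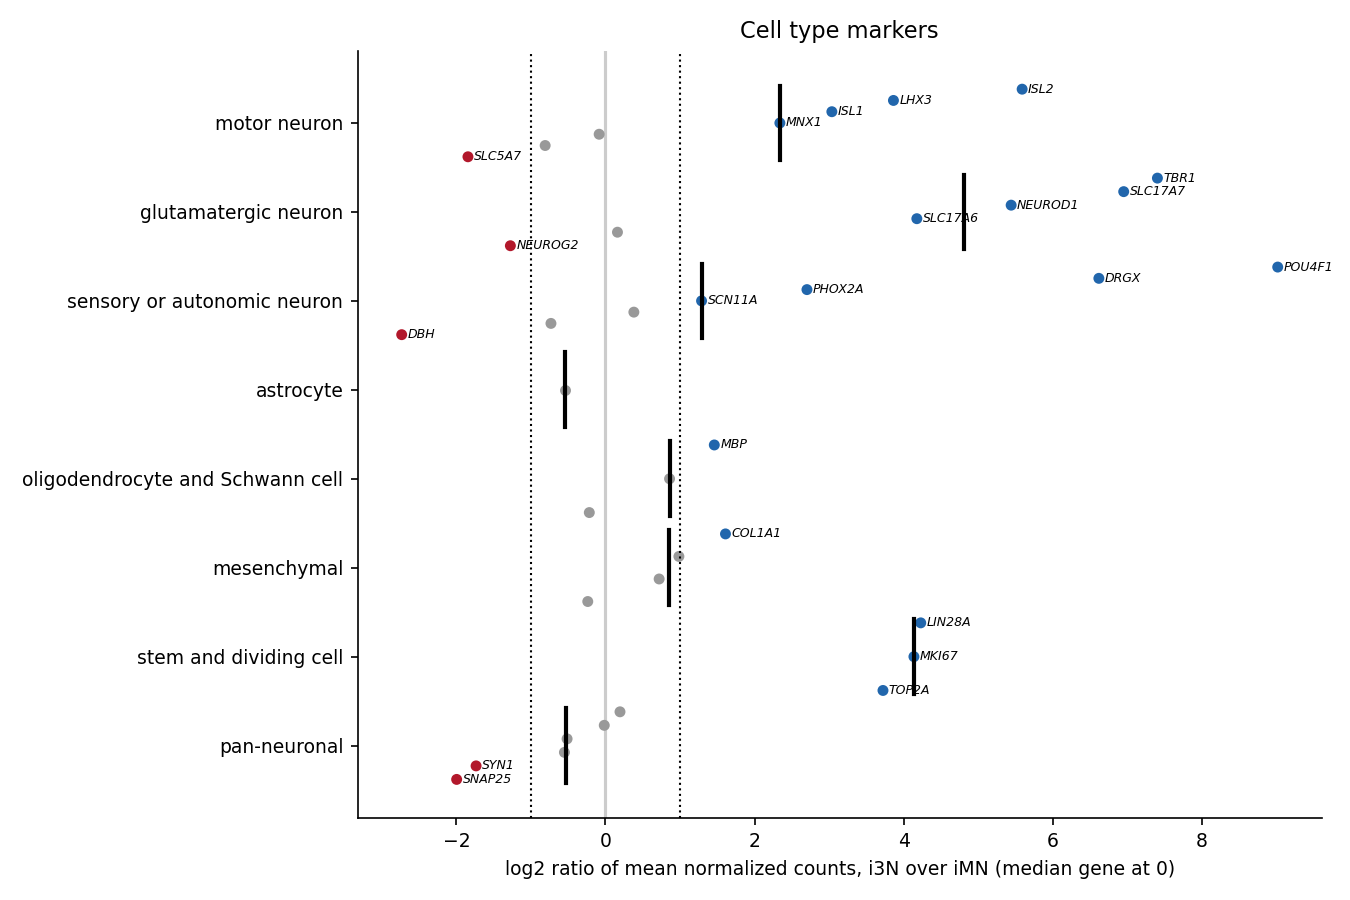
Log2 ratio of mean normalized counts, i3N over iMN (horizontal axis), for markers of cell types (vertical axis), 1 point per gene listed in both tables and a black bar for the median of each list. Blue points are past 2-fold in i3Ns and red points past 2-fold in iMNs. The medians of the glutamatergic (4.81) and the stem and dividing cell markers (4.14) lie far to the right, and motor neuron factors such as *ISL2* do as well.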

How the data were processed

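The authors made RNA-seq libraries of 3 SCR and 3 *SMN*-KD cultures for each of 2 neuron types from ribosome-depleted total RNA. The authors ran fastp, Salmon and, within each cell type, DESeq2. Versions, transcript annotation and strand setting were not given in the sources used here, and hg38 is named for the splicing analysis. Per the file headers, each deposited table holds identifiers, the mean over 6 libraries of counts divided by size factors (a normalized signal, pooled over SCR and *SMN*-KD), and 4 columns of the authors' own comparison (log2 fold change, its standard error, p-value and adjusted p-value). Those 4 columns were not used, so the effect of *SMN*-KD, the spread between replicates and the knockdown itself were not analysed.

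Means were read with pandas 2.3.3 in Python 3.11.15 and matched on the Ensembl identifier. Positions and lengths are from GENCODE release 44 on GRCh38, which held 15713 identifiers of the iMN table and 18138 of the i3N table. Each mean was ranked within its table, divided by the MANE Select transcript length in kb, and set against the other cell type after the median ratio of shared genes was made 1. No test was run. The scaling was tested on simulated data in which few genes changed, up or down with equal odds. In the real tables, 9.95% of shared genes were past 2-fold in i3Ns and 14.7% in iMNs. The simulation does not cover that case. Alternatives changed the genes ranked against, the length, the scaling, the fold and a filter on low means. Ranking against shared genes was added after seeing the data. The 9 genes are always named, and any gene of the lists by role or of the cell type markers could be. In these lists, *NGFRAP1* and *PRRXL1* are older names of *BEX3* and *DRGX*. Some genes of these lists are not reported here, and the counts and sums leave them out. The 9 genes and the lists were chosen with earlier results of these data known.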

Additional observations from a re-analysis of the deposited data

How the results depend on the processing

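No paired analysis was possible because the columns used carry no replicate, and for the same reason no library could be left out. The i3N over iMN ratio of each of the 9 genes kept its direction and its side of the 2-fold limit under all 4 other scalings, which shifted it by at most 0.07 on the log2 scale. Summing identifiers could change none of the 18 means, since each symbol had 1 identifier. With merged exons as the length, levels per kb were lower by over 1.5 times for *NTRK2* (119 in iMNs and 205 in i3Ns), *RET* (309 and 708), *BDNF* (68.9 and 78.8) and *NTF3* (7.84 and 42.1), since their merged exons are longer. The i3N percentile of *GFRA3* fell to 21.1 among genes with a mean of at least 10 and to 22.2 among shared genes, and that of *NTF3* to 22.0 and 23.0, since these leave out weak genes. The other 50 percentiles computed under an alternative moved by under 10 points. Of the 58 pathway genes beside the 9 that were listed in both tables, 13 were higher in iMNs and 10 in i3Ns past 2-fold. Past 4-fold the counts were 6 in iMNs and 7 in i3Ns, so the larger count changed sides. Past 2-fold, 14.7% of all shared genes were higher in iMNs and 9.95% in i3Ns. The share past 4-fold was not computed. The depth of the libraries is unknown, and means near the lowest listed value, such as those of *NTF3* and *GFRA3* in iMNs, carry the least information.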
